A study of Mus musculus with 192 samples.

Results

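Adipose tissue macrophages were followed here through 10 genes out of 54752 in the table, and these were Cd68, Lgals3, Adgre1, Trem2, Gpnmb, Itgax, Cd9, Mrc1, Clec10a and Csf1r. They were chosen by name as markers of these cells, and each of the 10 symbols was found in the table. Wild-type (WT) and Nrf2-knockout (Nrf2-KO) mice, all on a C57BL/6J background (C57BL/6 in the labels), were either flown in space (FL) or kept on the ground as controls (GC). The labels give an age of 12 weeks, which is near their age at launch, and the tissues were taken after the flight. RNA-sequencing of 9 tissues gave 192 samples in the groups GC_WT, FL_WT, GC_KO and FL_KO, and the tissues used here are the white fat around the epididymis (eWAT), the brown fat between the shoulder blades (iBAT), liver (Liv) and spleen (Spl). In each of these 4 tissues there were 6 mice in GC_WT, FL_WT and GC_KO and 5 in FL_KO. The flight mouse FL04, an Nrf2-KO mouse with an intestinal haemorrhage, was left out, as in the paper that reported these data. The mice were males, the knockout is a germ-line deletion present in every cell, and Nrf2-KO mice were selected for the absence of a hepatic shunt. Flight and ground mice were dissected at separate times and places, so that flight and these circumstances cannot be told apart. Within a tissue each value comes from a separate mouse, and p-values therefore measure the spread between mice. The 4 tissues come from the same mice and are not independent of each other.

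Macrophages of white fat clear dying adipocytes and take up the lipid that these cells release. Cells that gather around dying adipocytes carry Cd9, Trem2, Itgax, Gpnmb and Lgals3 and are often called lipid-associated macrophages, while resident cells of the vascular and interstitial niche carry Mrc1 and Clec10a. Survival of both kinds depends on signalling through Csf1r, and Nrf2 is a transcription factor that turns on antioxidant and detoxifying genes in macrophages and adipocytes alike.

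The genotype was checked through Nfe2l2, the gene that encodes Nrf2, in TPM, a level of transcripts that RSEM scales by their length and by the total of the library. In eWAT it lay between 58.06 and 87.93 TPM in the 12 WT mice and between 25.84 and 40.76 TPM in the 11 Nrf2-KO mice. It lay lower in every Nrf2-KO mouse than in every WT mouse of the same tissue in iBAT, Liv and Spl as well, although the Spl ranges, 73.14 to 86.67 TPM and 60.37 to 67.83 TPM, were close. The RNA of the gene was thus lower in Nrf2-KO mice, but not absent. Libraries of the 4 tissues held between 13110740 and 16308175 expected counts. In eWAT, 6 white adipocyte markers (Adipoq, Plin1, Lep, Cidec, Lipe and Pparg) summed to between 14189.8 and 17719.9 TPM in GC_WT, and the sum of 5 epididymis markers was at most 21.66 TPM in any of the 23 mice. Bulk RNA does not separate cells, and fewer cells of a type cannot be told apart from less RNA per cell. Other cells of each tissue can also express the members.

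The members were spread over the genome (GENCODE vM21 on GRCm38). Cd68 (ENSMUSG00000018774.13) lies at chr11:69664213-69666153, Lgals3 (ENSMUSG00000050335.17) at chr14:47367751-47386160 and Adgre1 (ENSMUSG00000004730.15) at chr17:57358691-57483527. Trem2 (ENSMUSG00000023992.14) lies on the same chromosome at chr17:48346401-48354147, and Itgax (ENSMUSG00000030789.9) lies at chr7:128129547-128150657. Gpnmb (ENSMUSG00000029816.10) lies at chr6:49036546-49070929, and Cd9 (ENSMUSG00000030342.8) on that chromosome at chr6:125460266-125494791. Mrc1 (ENSMUSG00000026712.3) lies at chr2:14229392-14332057 and Clec10a (ENSMUSG00000000318.16) at chr11:70156197-70170834.

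RefSeq (GRCm38.p6) gave a promoter for 7 of the 10 members, all but Adgre1, Clec10a and Csf1r. Those of the 4 members that rose in eWAT of flown WT mice are shown as the 250 bases before the start of transcription in RefSeq, read on the strand of the gene, because these genes moved together. The Lgals3 window lies inside the GENCODE span of that gene, which begins at an earlier start, and the Itgax window ends just inside its span. Capitals mark 2 motifs that were searched on both strands, GAGGAA (the core of the site of PU.1, the macrophage lineage factor, also matched as TTCCTC) and TGANTCA (the AP-1 site).
Cd68, chr11:69666171-69666420, minus strand: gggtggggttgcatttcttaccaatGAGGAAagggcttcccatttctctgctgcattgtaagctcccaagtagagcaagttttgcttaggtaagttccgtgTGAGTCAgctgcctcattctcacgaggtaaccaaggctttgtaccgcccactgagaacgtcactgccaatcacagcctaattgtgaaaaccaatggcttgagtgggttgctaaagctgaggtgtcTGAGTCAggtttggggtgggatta
Itgax, chr7:128129300-128129549, plus strand: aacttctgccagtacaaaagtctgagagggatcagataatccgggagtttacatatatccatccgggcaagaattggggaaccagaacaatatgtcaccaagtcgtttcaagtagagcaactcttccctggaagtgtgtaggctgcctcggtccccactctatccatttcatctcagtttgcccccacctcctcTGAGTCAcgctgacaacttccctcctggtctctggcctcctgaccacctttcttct
Trem2, chr17:48346151-48346400, plus strand: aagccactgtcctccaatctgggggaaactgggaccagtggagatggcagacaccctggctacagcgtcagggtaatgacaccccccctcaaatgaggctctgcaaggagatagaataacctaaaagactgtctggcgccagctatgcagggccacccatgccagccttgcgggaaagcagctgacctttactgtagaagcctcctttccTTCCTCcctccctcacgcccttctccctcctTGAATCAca
Lgals3, chr14:47373610-47373859, plus strand: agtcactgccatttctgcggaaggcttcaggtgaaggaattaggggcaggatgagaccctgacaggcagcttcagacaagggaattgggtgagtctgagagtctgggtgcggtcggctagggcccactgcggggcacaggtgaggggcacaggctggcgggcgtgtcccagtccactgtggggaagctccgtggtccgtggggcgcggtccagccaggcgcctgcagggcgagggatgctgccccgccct
The Cd68 window held GAGGAA at base 26 and TGANTCA at bases 102 and 227, counted from the 5′ end of the window. The Itgax window held TGANTCA at base 195, and the Trem2 window held the opposite strand of GAGGAA at base 211 and TGANTCA at base 242. None of these matches overlapped. Of the 7 member promoters, 3 held TGANTCA (Cd68, Itgax and Trem2), and 6.75% of 32851 promoters of the same length did. GAGGAA was found in 3 of the 7 (Cd68, Trem2 and Mrc1), against 23.3% of all promoters. The E-box CACGTG was found in 0 of the 7, against 6.02% of all promoters. These matches describe letters in the window and were not tested for binding.

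In eWAT of WT mice, 4 of the 10 members rose with flight, and 0 fell. The 4 were Cd68, Itgax, Trem2 and Lgals3, with log2 fold changes between 0.70 and 1.16, and the other 6 did not pass the test. Across all 15317 genes tested in eWAT, 13.4% were called between FL_WT and GC_WT and 6.65% were called higher. A gene was called where the adjusted p of edgeR's quasi-likelihood test (Benjamini-Hochberg over all genes tested in the tissue) was under 0.05. The fitted change of all 10 members was above 0, with a median log2 fold change of 0.30 against -0.0039 over all genes tested. Cd68, Lgals3 and Adgre1 were picked by the study on these samples, and their direction is therefore no independent evidence. DESeq2 and limma also called 4 members each, but Itgax passed limma's filter on group mean TPM only through FL_WT.

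**Figure D1:**
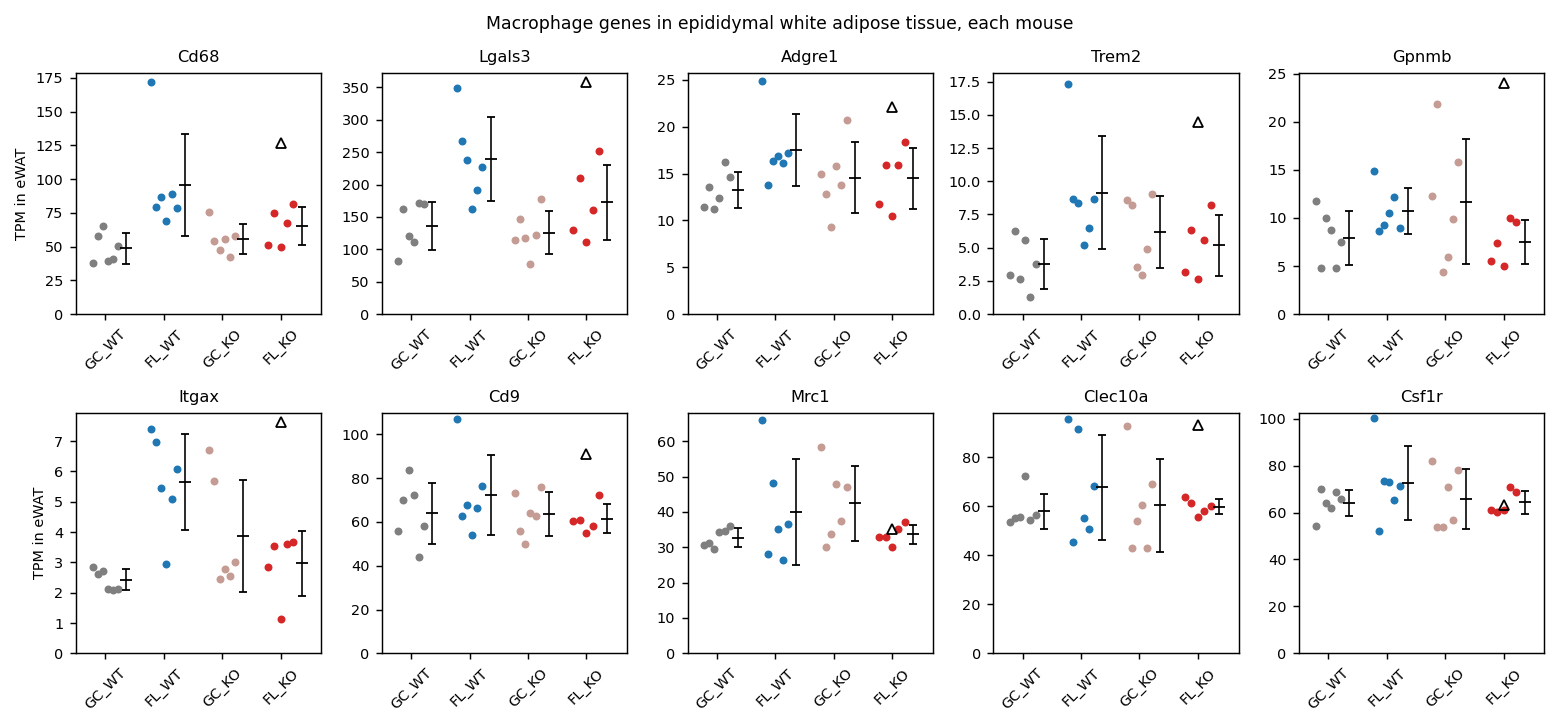
TPM of each of the 10 members in eWAT (y axis) for the 4 groups (x axis). Points are mice, bars are mean ± SD, and the open triangle is FL04, which was left out of the means. FL_WT lies above GC_WT without overlap for Cd68 and Itgax, and the mouse FL03 is the highest FL_WT point in all 10 panels.

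Cd68, a lysosomal glycoprotein that is the standard marker of macrophages, lay between 38.1 and 65.2 TPM in GC_WT (median 45.6) and between 69.0 and 171.8 TPM in FL_WT (median 82.8). Every FL_WT mouse lay above every GC_WT mouse. The mean rose from 48.6 ± 11.2 to 95.8 ± 37.9 TPM (SD, n = 6 each). The log2 fold change was 0.86 (standard error, SE, 0.17, taken from the F statistic of the fit), with an edgeR adjusted p of 0.00186. In Nrf2-KO mice, GC_KO lay between 42.4 and 75.7 TPM (median 54.9), and FL_KO lay at 51.5, 74.9, 49.7, 67.3 and 81.6 TPM. These ranges overlapped, and the log2 fold change was 0.22 (SE 0.18, adjusted p = 0.508 by edgeR).

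Itgax, which encodes the integrin CD11c of inflammatory macrophages and dendritic cells, was expressed at a low level. It lay between 2.08 and 2.86 TPM in GC_WT (median 2.37) and between 2.95 and 7.41 TPM in FL_WT (median 5.77). The groups did not overlap. The log2 fold change was 1.12 (SE 0.27, adjusted p = 0.0081 by edgeR). GC_KO ran from 2.46 to 6.72 TPM (median 2.90), wider than GC_WT, and FL_KO lay at 2.85, 3.54, 1.14, 3.62 and 3.67 TPM. In these mice the log2 fold change with flight was -0.38 (SE 0.28) and did not pass the test (adjusted p = 0.462 by edgeR).

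Cd68 and Itgax were the 2 members whose FL_WT and GC_WT mice did not overlap, whereas 6.57% of all genes tested showed such a separation in either direction. Both were called in 9 of 9 other processings and in all 12 fits with a WT mouse left out. Their log2 fold changes in those fits ran from 0.67 to 0.95 for Cd68 and from 0.93 to 1.26 for Itgax. Itgax passed limma's filter on group mean TPM only through FL_WT (mean 5.66 TPM, other groups 2.42 to 3.87 TPM). Its calls in the limma runs with that filter were thus favoured by the filter. In limma without the filter Itgax was also called (adjusted p = 0.0159).

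Trem2, a lipid-sensing receptor that marks lipid-associated macrophages, lay between 1.31 and 6.27 TPM in GC_WT (median 3.37) and between 5.21 and 17.3 TPM in FL_WT (median 8.55). The groups overlapped only at the edge. The log2 fold change was 1.16 (SE 0.35, adjusted p = 0.0295 by edgeR), on counts of between 12 and 146 reads a library. FL_KO lay at 3.16, 6.30, 2.66, 5.59 and 8.24 TPM, within the GC_KO range of 2.94 to 9.03 TPM except for FL09. The Trem2 call was lost without FL03, where the adjusted p was 0.0844 and the log2 fold change 0.94, and when GC03, GC06, GC08 or GC10 was left out of the ground mice.

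Lgals3, which encodes galectin-3, a lectin that phagocytes hold in the cytosol and secrete, was the most abundant member in eWAT. It lay between 81.8 and 172.2 TPM in GC_WT (median 141.4) and between 162.8 and 349.8 TPM in FL_WT (median 232.3). These ranges overlapped slightly. The log2 fold change was 0.70 (SE 0.22, adjusted p = 0.0371 by edgeR). GC_KO lay between 76.9 and 177.6 TPM (median 119.6), and FL_KO lay at 130.3, 210, 110.6, 161 and 251.7 TPM. The FL_KO change of 0.43 (SE 0.23) did not pass the test (adjusted p = 0.267 by edgeR). The WT call was lost with FL04 in the fit (adjusted p = 0.0607) and without FL03, FL05, FL06, GC03, GC06 or GC07 (adjusted p up to 0.0899).

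The remaining markers of lipid-associated and of all macrophages did not pass the test. Adgre1, which encodes F4/80, an adhesion receptor used to stain mouse macrophages, averaged 13.3 ± 1.95 TPM in GC_WT and 17.5 ± 3.82 TPM in FL_WT (SD, n = 6 each), and its log2 fold change was 0.28 (SE 0.14, adjusted p = 0.21 by edgeR). Gpnmb, a lysosomal transmembrane glycoprotein of lipid-loaded macrophages, averaged 7.94 ± 2.82 and 10.7 ± 2.41 TPM and its log2 fold change was 0.32 (SE 0.30, adjusted p = 0.545). Cd9, a tetraspanin that other cells also carry, averaged 63.9 ± 14.0 and 72.3 ± 18.4 TPM, and its log2 fold change was 0.07 (SE 0.13, adjusted p = 0.792). For each of these genes the ranges of both groups overlapped.

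Markers of resident macrophages did not pass the test either. Mrc1, the mannose receptor CD206, lay between 29.4 and 35.9 TPM in GC_WT (median 32.9) and between 26.3 and 66.1 TPM in FL_WT (median 35.8). Clec10a, the galactose-binding lectin CD301a, lay between 53.3 and 72.5 TPM in GC_WT (median 55.2) and between 45.5 and 95.4 TPM in FL_WT (median 61.7). FL_WT reached both below and above GC_WT for each of them. Their log2 fold changes were 0.17 (SE 0.15, adjusted p = 0.516 by edgeR) and 0.10 (SE 0.15, adjusted p = 0.741).

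Csf1r, the receptor for the growth factors CSF1 and IL-34, averaged 64.1 ± 5.66 TPM in GC_WT and 72.5 ± 15.7 TPM in FL_WT. Its log2 fold change was 0.06 (SE 0.10, adjusted p = 0.725 by edgeR), so that the general receptor of the lineage and the marker Cd68 did not have the same fitted change. A test of that difference between genes was not made.

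A single mouse stood apart in these values. FL03 was the highest of the 6 FL_WT mice for 10 of 10 members, and its member TPM summed to 954.7, against a median of 586.1 in FL_WT and a range of 342.7 to 473.8 in GC_WT. Without FL03, 2 members were called, Cd68 and Itgax, and the median log2 fold change of the 10 was 0.22. The same count was found without GC03 or without GC06. FL03 also held the highest sum of B-cell markers (71.87 TPM, with a FL_WT median of 3.85 TPM), of monocyte markers (84.12 TPM, median 31.7 TPM), of mesothelial markers (154.4 TPM, median 18.44 TPM) and of Kupffer-cell markers (30.1 TPM, median 3.87 TPM). The part of these cells in the member values was not tested.

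**Figure D2:**
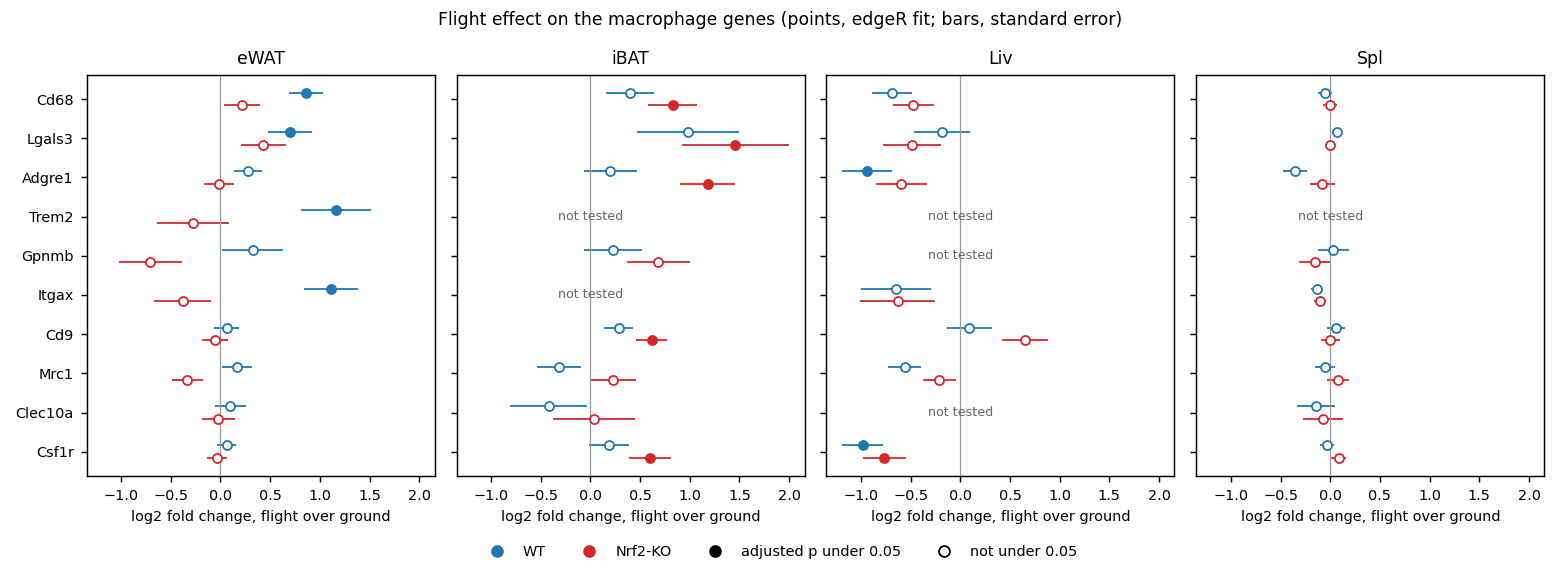
Log2 fold change with flight (x axis) of each member (y axis) in eWAT, iBAT, Liv and Spl, in WT mice and in Nrf2-KO mice. Bars are the SE and filled points have an adjusted p under 0.05. In eWAT the filled points are Cd68, Itgax, Trem2 and Lgals3 in WT mice, in iBAT they lie in Nrf2-KO mice, and in Liv they lie below 0.

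In Nrf2-KO mice, 0 of the 10 members were called in eWAT between FL_KO and GC_KO by edgeR, against 7.71% of all genes tested. At an unadjusted p under 0.05 there were 2, against 23.3% of all genes tested, and these were Gpnmb with a log2 fold change of -0.70 and Mrc1 with -0.33, and DESeq2 and limma called 0 each. The median log2 fold change was -0.0449 and 2 of the 10 fitted changes were above 0. Gpnmb lay between 4.38 and 21.8 TPM in GC_KO and at 5.51, 7.44, 4.99, 10 and 9.58 TPM in FL_KO, within the wide range of the ground mice. Mrc1 lay between 30.0 and 58.5 TPM in GC_KO and at 33.0, 33.0, 30.0, 35.2 and 37.1 TPM in FL_KO, where the 5 mice were closely spaced. Adgre1 averaged 14.6 ± 3.77 TPM in GC_KO and 14.5 ± 3.26 TPM in FL_KO (SD, n = 6 and 5), and Csf1r averaged 65.9 ± 12.7 and 64.4 ± 4.97 TPM. Cd9 averaged 63.6 ± 9.93 and 61.4 ± 6.56 TPM, and Clec10a averaged 60.3 ± 18.9 and 59.7 ± 3.09 TPM. These means differed by less than the SD of either group.

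Whether flight acted differently in the genotypes was tested as the difference of both flight effects. No member was called by edgeR, DESeq2 or limma (0 of 10), and 0% of all genes tested were called, although 1291 genes (8.43%) had an unadjusted p under 0.05. At that unadjusted level there were 5 members, all with a lower signed change in Nrf2-KO than in WT mice. For Gpnmb the fitted change was 0.32 in WT and -0.70 in Nrf2-KO mice, and for Mrc1 0.17 and -0.33, so it was not smaller in size. The difference was -1.5 for Itgax (SE 0.39, adjusted p = 0.332 by edgeR), -1.44 for Trem2 (SE 0.51, adjusted p = 0.454) and -0.64 for Cd68 (SE 0.25, adjusted p = 0.511). It was -1.03 for Gpnmb and -0.50 for Mrc1, with adjusted p of 0.555 and 0.554. The rise in WT mice and its absence from the calls in Nrf2-KO mice are therefore not shown to differ.

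The genotypes were also compared within each environment. Between FL_KO and FL_WT, 0 of the 10 members were called by edgeR against 1.06% of all genes tested, and 4 had an unadjusted p under 0.05, against 10.7% of all genes tested. All 10 fitted changes were below 0, with a median of -0.378. The log2 fold change of Itgax was -0.94 (SE 0.28, adjusted p = 0.141 by edgeR), and Itgax was called by DESeq2 with a log2 fold change of -0.95 and an adjusted p of 0.0467, while limma called 0. Cd68 had -0.55 (SE 0.18, adjusted p = 0.183 by edgeR), Trem2 -0.82 (SE 0.36, adjusted p = 0.41) and Lgals3 -0.48 (SE 0.23, adjusted p = 0.465). Between GC_KO and GC_WT, 0 of the 10 were called by edgeR, DESeq2 or limma and 0 had an unadjusted p under 0.05, with 2.74% of all genes called and 15.5% at that unadjusted level. Trem2, Itgax and Gpnmb had log2 fold changes of 0.62, 0.55 and 0.52 on the ground, with adjusted p of 0.428, 0.342 and 0.443 by edgeR. All of these comparisons share groups of mice with one another.

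Other genes of the same cells were read from lists of known markers. Of 20 further macrophage genes, 6 were higher and 1 was lower in eWAT of FL_WT than of GC_WT, with a median log2 fold change of 0.27. Tyrobp, the signalling adaptor of Trem2, rose by 0.48 (adjusted p = 0.0242 by edgeR), Aif1, the cytoskeletal protein IBA1, by 0.66 (adjusted p = 0.0343) and Fcgr1, the high-affinity IgG receptor, by 0.73 (adjusted p = 0.0376). Cd14, the lipopolysaccharide co-receptor, fell by 0.64 (adjusted p = 0.00528). Without FL03, 0 of the 20 were higher and only Cd14 was called. In Nrf2-KO mice 0 of the 20 were called by edgeR, with 1 at an unadjusted p under 0.05.

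Of 17 genes of lipid handling and lysosomes that lipid-associated macrophages use, 8 were higher and 1 was lower in FL_WT, with a median log2 fold change of 0.29, and without FL03 the counts were 7 and 1. Fabp5, a fatty acid-binding protein, rose by 0.77 (adjusted p = 0.00222 by edgeR), Nceh1, a cholesterol ester hydrolase, by 0.78 (adjusted p = 0.0118) and Lipa, the lysosomal acid lipase, by 0.29 (adjusted p = 0.00494). Lpl, lipoprotein lipase, fell by 0.55 (adjusted p = 0.00266). Adipocytes express several of these genes too, and Lpl averaged 4329.3 ± 581.2 TPM in GC_WT. In Nrf2-KO mice 1 of the 17 was called, Fabp4, the fatty acid-binding protein of adipocytes, which was higher.

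Of 13 genes of resident macrophages, 1 was higher and 2 were lower in FL_WT, and the median was 0.0109. Mgl2, which encodes the lectin CD301b, rose by 0.50 (adjusted p = 0.0118 by edgeR). Gas6, a ligand that bridges dying cells to phagocyte receptors, fell by 0.86 (adjusted p = 0.000919), and Retnla, a secreted protein of alternatively activated cells, fell by 0.44 (adjusted p = 0.0401). In GC_WT, Gas6 averaged 207.3 ± 26.5 TPM and Retnla 629.2 ± 138.4 TPM (SD), and which cells of the fat pad held this RNA was not tested. Without FL03, Mgl2 and Gas6 were called and Retnla was not. In Nrf2-KO mice 0 of the 13 were higher and 1 was lower, Gas6, which fell by 0.68 (adjusted p = 0.0155 by edgeR). Of 6 measured genes around Csf1r and Trem2 (the ligands Csf1 and Il34 and signalling genes), 0 were called by edgeR in WT mice, with 3 at an unadjusted p under 0.05, against 26.9% of all genes.

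Markers of other cells of the fat pad moved in the same comparison. Of 5 endothelial markers 3 rose in FL_WT (Cdh5 by 0.42, Kdr by 0.42 and Pecam1 by 0.34), and their summed level lay between 386.3 and 498.6 TPM in GC_WT and between 535.4 and 693.6 TPM in FL_WT. Of 5 fibroblast markers 4 fell (Dcn by 0.66, Pdgfra by 0.54, Pi16 by 0.89 and Dpt by 0.44), from sums of 1109.7 to 1647.8 TPM to sums of 710.1 to 1343.3 TPM. Of 6 white adipocyte markers Pparg fell by 0.44, while the sum kept a like range, 14134.1 to 16759.0 TPM in FL_WT. Of 5 monocyte markers Chil3 rose, from 0.383 ± 0.156 to 3.80 ± 3.44 TPM, and of 6 dendritic-cell markers Zbtb46 rose by 0.31. Neutrophil markers were too low to be tested, with sums of at most 6.77 TPM, and 0 of 4 B-cell, 0 of 4 T-cell and 0 of 5 mesothelial markers were called by edgeR. Of markers of other organs and cells, Cyp2e1 fell by 2.01 (of 5 hepatocyte markers), Acp5 fell by 0.38 (of 3 osteoclast markers) and Hmox1 rose by 0.59 (of 4 markers of red pulp macrophages). The paper treats Hmox1 as a target gene of Nrf2. It averaged 37.4 ± 3.96 TPM in GC_WT, 61.2 ± 24.1 TPM in FL_WT, 36.4 ± 9.83 TPM in GC_KO and 35.0 ± 7.53 TPM in FL_KO (SD). The part of Nrf2 in these values was not tested. Ppargc1a fell by 0.90 (of 3 brown adipocyte markers), and 0 of 3 Kupffer-cell, 0 of 3 erythroid and 0 of 2 skeletal muscle markers were called. Without FL03 the calls of Hmox1, Ppargc1a and Pi16 were lost, and Plac8 (of monocytes), Cd5l (of Kupffer cells) and Cd8a (of T cells) were called as lower. FL03 had the highest sum of the red pulp markers (135.7 TPM, with a FL_WT median of 70.9 TPM). The part of these cells in the change of the members was not tested.

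All 45 pairs of members had an r above 0 among the 23 eWAT mice. Pearson's r of log2(TPM + 1) lay between 0.118 and 0.792 with a median of 0.504, and as deviations from the group means it lay between 0.076 and 0.874 with a median of 0.491. Mrc1 went most closely with Clec10a (r = 0.792) and with Csf1r (r = 0.792), and Trem2 with Itgax (r = 0.781). The pair Gpnmb and Clec10a had the lowest value (r = 0.118). Without FL03 the median over the pairs was 0.351 and 43 of the 45 were above 0. These correlations share libraries and are given as a description over 23 mice, with no test.

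**Figure D3:**
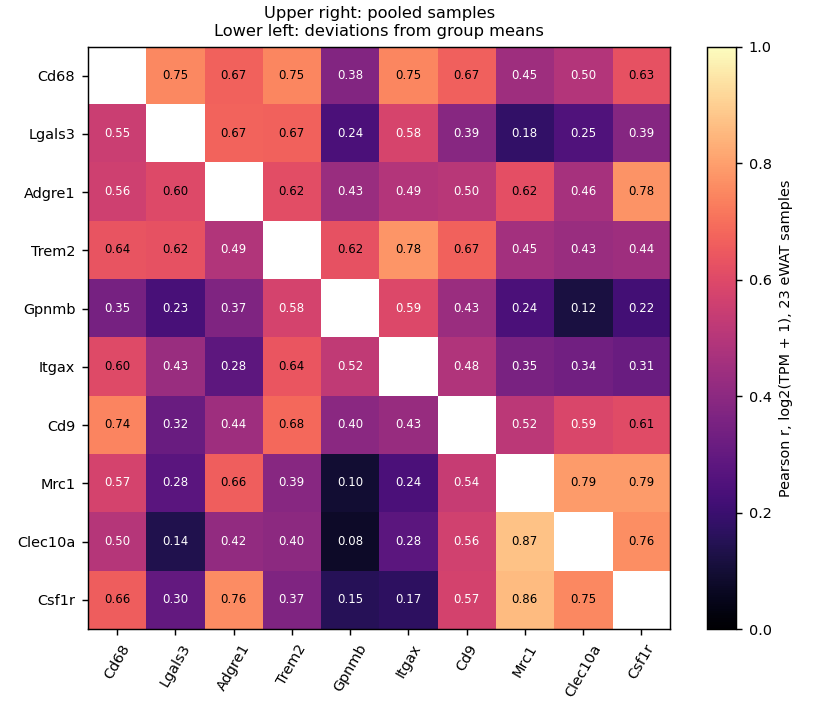
Pearson's r between each pair of members (both axes) over the 23 eWAT mice, on log2(TPM + 1). The upper right gives r over all mice and the lower left gives r of deviations from the group means. The highest values over all mice are those of Mrc1 with Clec10a and with Csf1r (0.792 each), and Gpnmb with Clec10a has the lowest.

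Against the mean of the other 9 members, Cd68 had the highest r (0.828), followed by Trem2 (0.813) and Adgre1 (0.780), and Gpnmb had the lowest (0.469). Of 10860 genes with a mean of at least 5 TPM in at least 1 eWAT group, the gene most like the mean of the members was Lgmn, which encodes the lysosomal protease legumain (r = 0.941, and 0.927 as deviations from group means). Next came Capg, an actin-capping protein (r = 0.925), Cyba, a subunit of the phagocyte NADPH oxidase (r = 0.922), and Fcer1g, the shared chain of Fc receptors (r = 0.918). Ap2m1, Clic1, Lrrk1 and Slc25a24 followed, with r between 0.905 and 0.907.

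In iBAT the calls lay in Nrf2-KO mice. Between FL_KO and GC_KO, 5 of 8 measured members were higher and 0 were lower, with 33.5% of all 13574 genes tested called and 17% called higher. Between FL_WT and GC_WT, edgeR called 0 of the 8, with 0 at an unadjusted p under 0.05 (33% of all genes) and 19.2% of all genes called, and DESeq2 called 0. limma called 2, Cd68 and Cd9, but only these and Lgals3 passed its filter of 5 TPM. Its TPM values hold the shift of iBAT given below, and its share of all genes called is not given. The adjusted p by edgeR was 0.252 for Cd68 and 0.174 for Cd9. The difference between the flight effects of both genotypes was called by edgeR, DESeq2 and limma for 0 members (1 at an unadjusted p under 0.05, against 8.3% of all genes, and 0% of all genes called). Trem2, with at most 7 counts in a library, and Itgax, with at most 24, did not pass the filter on low counts.

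Adgre1 lay between 0.43 and 0.73 TPM in GC_KO (median 0.56) and at 0.99, 1.33, 1.17, 2.27 and 3.31 TPM in FL_KO. Every FL_KO mouse lay above every GC_KO mouse, which held for 4 of the 8 members (Adgre1, Cd9, Cd68 and Csf1r) and for 34% of all genes tested in iBAT. The log2 fold change of Adgre1 was 1.18 (SE 0.28, adjusted p = 0.00246 by edgeR). In WT mice it lay between 0.41 and 1.21 TPM on the ground and between 0.71 and 1.5 TPM in flight, which overlapped. The difference of both flight effects was 0.98 (SE 0.39, adjusted p = 0.465 by edgeR).

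Cd9 lay between 3.71 and 5.87 TPM in GC_KO (median 4.30) and at 10.31, 10.12, 6.17, 10.94 and 8.82 TPM in FL_KO, again without overlap. Cd68 lay between 1.75 and 2.61 TPM (median 2.28) and at 6.37, 3.37, 2.94, 6.20 and 8.51 TPM, also without overlap. Their log2 fold changes were 0.62 (SE 0.15, adjusted p = 0.00376 by edgeR) and 0.83 (SE 0.25, adjusted p = 0.0129). In WT mice Cd9 lay between 4.41 and 6.68 TPM on the ground and between 7 and 10.78 TPM in flight, a separation that 16.4% of all genes tested showed in this direction, and its log2 fold change was 0.29 (SE 0.15, adjusted p = 0.174 by edgeR). TPM moved as a whole in iBAT, where the median gene shifted with flight by 0.309 in WT mice and by 0.434 in Nrf2-KO mice on the log2 TPM scale, against 0.0225 and 0.0413 in the fits of scaled counts.

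Csf1r lay between 1.56 and 2.97 TPM in GC_KO and at 4.89, 4.23, 3.62, 6.69 and 3.39 TPM in FL_KO, and its log2 fold change was 0.60 (SE 0.21, adjusted p = 0.0295 by edgeR). Lgals3 lay between 0.70 and 3.12 TPM and at 5.96, 3.25, 1.41, 5.11 and 14.56 TPM, and its log2 fold change was 1.46 (SE 0.54, adjusted p = 0.0405). Csf1r did not overlap between the groups, and Lgals3 did through FL09. Gpnmb (0.68, adjusted p = 0.103), Mrc1 (0.23) and Clec10a (0.04) did not pass the test. Of 18 further macrophage genes measured in iBAT, 9 were higher and 0 were lower in FL_KO, and 0 were called in FL_WT, with 0 at an unadjusted p under 0.05.

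Markers of other cells moved in iBAT as well. All 3 measured erythroid markers (Hbb-bs, Alas2 and Hba-a1) were lower in flown mice of both genotypes, with a median log2 fold change of -1.07 in Nrf2-KO and -1.43 in WT mice, and their list summed to between 261.9 and 552.4 TPM in GC_KO and between 207.4 and 314.1 TPM in FL_KO. Of 4 brown adipocyte markers in FL_KO, Elovl3 fell by 2.04 (adjusted p = 1.28e-05 by edgeR) and Cidea by 0.32 (adjusted p = 0.0263), while Ppargc1a rose by 1.41 (adjusted p = 0.0343), and the sums ran from 3339.3 to 4752.1 TPM in GC_KO and from 3221.4 to 6737.0 TPM in FL_KO. Of 5 endothelial markers Pecam1 rose by 0.29 (adjusted p = 0.0437), of 6 white adipocyte markers Adipoq was higher and Lipe was lower, and of 14 measured genes of lipid handling and lysosomes 3 were higher and 6 were lower. Slc40a1, 1 of 3 measured red pulp markers, rose by 2.03 (adjusted p = 0.000107 by edgeR). Zbtb46 of the dendritic-cell markers was higher and Acp5 of the osteoclast markers was lower. The part of these cells in the member values was not tested.

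Skeletal muscle RNA was present in 3 iBAT libraries of flown mice. The summed TPM of Acta1, Ckm, Myh4, Mylpf and Tnnt3 was 5892.8 in FL06, 2814.5 in FL08 (both FL_WT) and 7227.7 in FL11 (FL_KO), and at most 60.09 in the other iBAT libraries. Without these 3 libraries, 3 members were called between FL_KO and GC_KO. Adgre1 had a log2 fold change of 1.12 (adjusted p = 0.0072 by edgeR), Cd68 of 0.80 (adjusted p = 0.0316) and Cd9 of 0.59 (adjusted p = 0.0118), whereas Lgals3 had 1.53 (adjusted p = 0.0546) and Csf1r 0.46 (adjusted p = 0.114). Leaving out FL01 or FL12 also brought the count to 3. Comparisons of the genotypes within an environment gave no calls in iBAT, where edgeR and DESeq2 called 0 of the 8, and limma 0 of the members it tested. Between GC_KO and GC_WT there were 0 at an unadjusted p under 0.05, against 12.7% of all genes, with 2.14% of all genes called. Between FL_KO and FL_WT there was 1, against 11.7% of all genes, with 1.5% of all genes called.

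**Figure D4:**
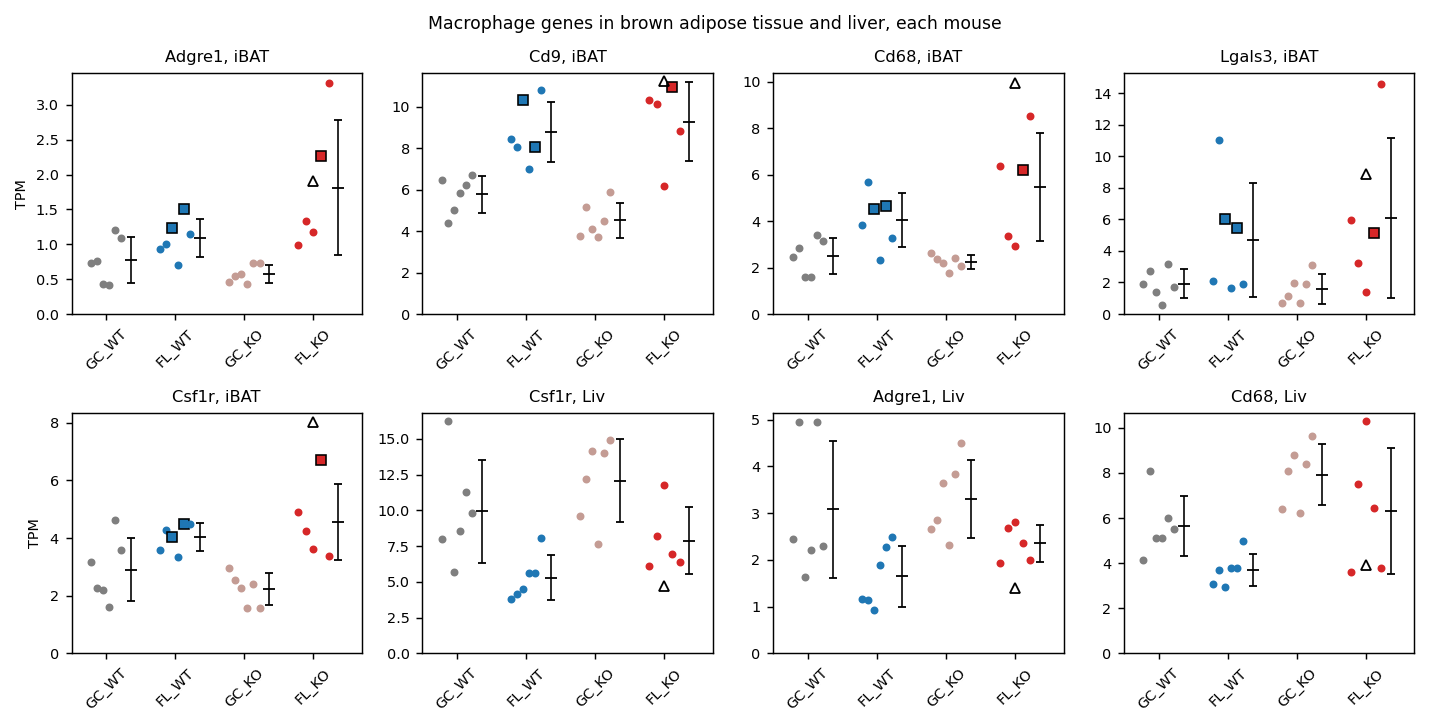
TPM (y axis) of the members called with flight in iBAT or in Liv, and of Cd68 in Liv, for the 4 groups (x axis). Points are mice, bars are mean ± SD and the open triangle is FL04, while squares with a black edge in iBAT are the 3 libraries with more than 1000 TPM of muscle genes. In iBAT every FL_KO mouse lies above every GC_KO mouse except FL09 for Lgals3, and in Liv the Csf1r mean of the flown mice lies below that of the ground mice in both genotypes.

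In Liv of WT mice the members called with flight were lower. Between FL_WT and GC_WT, 2 of 7 measured members were lower and 0 were higher, with 3.45% of all 13433 genes called. Csf1r lay between 5.66 and 16.22 TPM in GC_WT (median 9.19) and between 3.79 and 8.10 TPM in FL_WT (median 5.03). The ranges overlapped, and the log2 fold change was -0.98 (SE 0.21, adjusted p = 0.0111 by edgeR). Adgre1 lay between 1.63 and 4.95 TPM in GC_WT (median 2.37) and between 0.93 and 2.49 TPM in FL_WT (median 1.53), and its log2 fold change was -0.94 (SE 0.25, adjusted p = 0.0408). Cd68 (-0.69, adjusted p = 0.0617) and Mrc1 (-0.56, adjusted p = 0.0551) lay just outside the threshold and were called by DESeq2, which made 4 calls, while limma made 1, Csf1r. Trem2, Gpnmb and Clec10a did not pass the filter, with at most 5, 7 and 8.07 counts in a library.

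Between FL_KO and GC_KO in Liv, 1 member was called, against 3.34% of all genes. Csf1r lay between 7.66 and 14.93 TPM in GC_KO (median 13.1) and at 6.12, 8.22, 11.77, 6.92 and 6.41 TPM in FL_KO, and its log2 fold change was -0.76 (SE 0.21, adjusted p = 0.0486 by edgeR). With the mouse number as a block, which is given because all 5 Nrf2-KO pairs in Liv deviated together, Csf1r had -0.73 (SE 0.22) and was no longer called (adjusted p = 0.0923). Csf1r was called in 3 of 9 other processings and in 1 of 5 fits with an FL_KO mouse left out. DESeq2 also called Csf1r (adjusted p = 0.0144). The 1 call of limma was Cd9, higher by 0.75 (adjusted p = 0.0481), and not Csf1r. In the same blocked fit Cd9 was called as higher, by 0.65 on the log2 scale (SE 0.10, adjusted p = 0.00277 by edgeR), against 0.65 (SE 0.23, adjusted p = 0.141) without the block. Cd9 lay between 7.53 and 18.02 TPM in GC_KO and at 21.20, 12.16, 27.31, 27.12 and 36.17 TPM in FL_KO, where FL02 was the only flown mouse within the ground range. The blocked fit called 3 members in WT mice, adding Mrc1, and there 4 of 6 pairs had an r above 0.1. Only 2 flight mice of each genotype in Liv were closest to the ground mouse of their own number. The blocked calls, that of Cd9 included, are therefore given only beside the unblocked ones.

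Kupffer cells are the resident macrophages of liver. Of 4 Kupffer-cell markers measured in Liv, Vsig4, Cd5l and Clec4f were lower in FL_WT than in GC_WT and 0 were called in Nrf2-KO mice by edgeR, and of 19 further macrophage genes 8 were lower in FL_WT and 2 were lower in FL_KO. The summed level of the Kupffer-cell markers lay between 41.69 and 97.22 TPM in GC_WT (median 51.92) and between 25.73 and 54.24 TPM in FL_WT (median 31.88). It lay between 44.66 and 92.51 TPM in GC_KO (median 63.74) and between 29.59 and 73.46 TPM in FL_KO (median 43.75). Of other cells, 2 of 3 erythroid markers were lower in FL_WT, Hbb-bs by 1.32 and Hba-a1 by 1.36 on the log2 scale (adjusted p = 0.00753 and 0.00842 by edgeR), and the list summed to between 322.3 and 458.2 TPM in GC_WT and between 147.9 and 241.6 TPM in FL_WT. Emcn, 1 of 5 endothelial markers, and Spic, 1 of 4 red pulp markers, were lower too, while Cidec and Pparg, of 3 white adipocyte markers, were higher. The part of these cells in the Csf1r and Adgre1 values was not tested. Between genotypes in Liv, edgeR called 0 of the 7 members on the ground (1 at an unadjusted p under 0.05, against 13.4% of all genes, 0 by DESeq2 and by limma, 2.64% of all genes called). In flight it called 0 (3 at an unadjusted p under 0.05, against 17.3% of all genes, 2 by DESeq2, 0 by limma, 3.65% of all genes called). For the difference of the flight effects it called 0 (0 at an unadjusted p under 0.05, against 4.03% of all genes, 0 by DESeq2 and by limma, 0% of all genes called).

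In Spl, which expressed most members strongly, no flight effect was called. Of 9 measured members (all but Trem2, with at most 9 counts in a library), edgeR called 0 between FL_WT and GC_WT (2 at an unadjusted p under 0.05, against 17% of all genes, 0 by DESeq2 and by limma), where 2.26% of all 16170 genes were called. It called 0 between FL_KO and GC_KO (0 at an unadjusted p under 0.05, against 13% of all genes, 0 by DESeq2 and by limma), where 0.668% of all genes were called. For the difference of both effects all 3 tools called 0, with 0 at an unadjusted p under 0.05, against 3.98% of all genes, and 0% of all genes called.

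Between genotypes in Spl, 2 members were called, 1 on the ground and 1 in flight. Gpnmb lay between 2.10 and 3.86 TPM in GC_WT (median 2.46) and between 3.93 and 5.66 TPM in GC_KO (median 4.27), a separation that 0.668% of all genes tested showed in this direction, and rose by 0.67 on the log2 scale (SE 0.16, adjusted p = 0.0273 by edgeR). It was the only member called on the ground by edgeR and DESeq2, with 1.13% of all genes called, and limma on TPM, where its level fell under the filter, called 0 of 8. Lgals3 lay between 100.5 and 126.3 TPM in FL_WT (median 113.2) and at 98.14, 107.3, 96.48, 79.03 and 88.01 TPM in FL_KO. Its log2 fold change was -0.21 (SE 0.05, adjusted p = 0.0421 by edgeR), and it was the only member called between flown genotypes, with 1.16% of all genes called. The Lgals3 call was lost with FL04 in the fit (adjusted p = 0.0515) and without FL09, FL11 or FL12. Lgals3 was called in 4 of 8 other processings and in 2 of 5 fits with an FL_KO mouse left out. Gpnmb was called in 4 of 6 other processings. Of 20 further macrophage genes and 4 red pulp markers, 0 were called with flight by edgeR in either genotype. At an unadjusted p under 0.05 there were 1 and 3 of the 20 in WT and Nrf2-KO mice, against 17% and 13% of all genes.

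Flight effects of the members were next compared between tissues of the same mice, in a limma fit on log2 CPM (counts scaled by library size) with voom weights and the mouse as a random block. In WT mice the signed effect in eWAT lay above that in Liv for 5 of the 10 members, with 7.13% of all 18462 genes called. The difference of the log2 fold changes was 1.51 for Cd68 (SE 0.32, adjusted p = 0.000693 by limma), 1.0 for Csf1r (SE 0.20, adjusted p = 0.000345) and 1.20 for Adgre1 (SE 0.31, adjusted p = 0.00671). It was 1.58 for Itgax (SE 0.52, adjusted p = 0.0499) and 0.68 for Mrc1 (SE 0.21, adjusted p = 0.0288). In the edgeR fits per tissue, Csf1r, Adgre1 and Mrc1 changed by 0.06, 0.28 and 0.17 in eWAT, none of them called. In Liv they changed by -0.98, -0.94 and -0.56, so that their differences lay mostly in the change in Liv. Cd68 and Itgax were called as higher in eWAT itself. Against Spl the signed effect in eWAT was larger for 3 members, with 4.76% of all genes called, and these were Cd68 with 0.89 (SE 0.15, adjusted p = 3.93e-05 by limma), Itgax with 1.21 (SE 0.22, adjusted p = 8.44e-05) and Adgre1 with 0.61 (SE 0.17, adjusted p = 0.0186). Adgre1 was called in neither tissue alone, with 0.28 in eWAT and -0.35 in Spl. Against iBAT limma called 0 members (1 at an unadjusted p under 0.05, 10.5% of all genes called).

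In Nrf2-KO mice the flight effect in eWAT was lower than that in iBAT for 2 members, Itgax with a difference of -1.87 (SE 0.59, adjusted p = 0.0161 by limma) and Adgre1 with -1.11 (SE 0.39, adjusted p = 0.0337), and 18.2% of all genes were called. Itgax did not pass the filter on low counts in iBAT, where it had at most 24 counts in a library, and it entered this fit through the other tissues, so that its value is given only as fitted. Against Liv, Csf1r had a difference of 0.75 (SE 0.20, adjusted p = 0.0169 by limma), with 2.85% of all genes called. Its change by edgeR was -0.03 in eWAT and -0.76 in Liv, so that the difference lay in the fall in Liv. Against Spl limma called 0 members (0 at an unadjusted p under 0.05, 2.27% of all genes called).

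**Figure D5:**
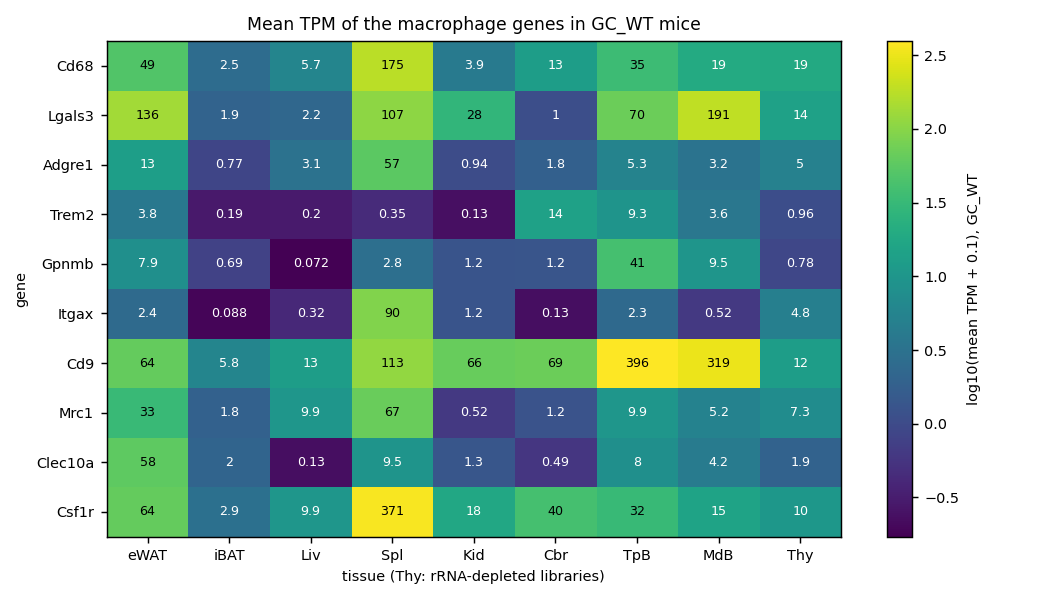
Mean TPM of each member (rows) in GC_WT in 9 tissues (columns), coloured by log10(mean TPM + 0.1). The thymus (Thy) column comes from libraries depleted of ribosomal RNA and is not compared with the other columns, which come from poly(A) libraries. Among the poly(A) tissues, Clec10a has its highest mean in eWAT, while Cd68, Adgre1, Itgax, Mrc1 and Csf1r have theirs in Spl.

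Across the 8 tissues with poly(A) libraries the members had different peaks in GC_WT (6 mice, and 3 in mandibular bone, MdB, and kidney, Kid). Clec10a was highest in eWAT, at 57.8 ± 7.26 TPM (SD, n = 6), followed by Spl (9.46 ± 2.13 TPM) and temporal bone (TpB, 7.98 ± 1.15 TPM), whose ranges overlapped. Mrc1 was highest in Spl (66.7 ± 8.42 TPM) and next in eWAT (32.7 ± 2.64 TPM), and the ranges of neither overlapped with the next tissue. The lowest mean was that in Liv for Clec10a (0.128 ± 0.0615 TPM) and that in Kid for Mrc1 (0.517 ± 0.110 TPM).

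The general macrophage markers and Itgax were highest in Spl. Csf1r stood at 371.3 ± 46.9 TPM there, at 64.1 ± 5.66 TPM in eWAT and at 40.5 ± 1.34 TPM in cerebrum (Cbr), where microglia carry it. Adgre1 stood at 57.0 ± 12.8 TPM in Spl and at 13.3 ± 1.95 TPM in eWAT, and Cd68 at 175.2 ± 12.3 and 48.6 ± 11.2 TPM, with the eWAT range of Cd68 overlapping that of TpB (35.0 ± 7.86 TPM). Itgax stood at 90.4 ± 4.68 TPM in Spl and at 2.42 ± 0.349 TPM in eWAT, which overlapped with TpB (2.31 ± 0.682 TPM). For all 4 genes iBAT had the lowest mean, from 0.0883 ± 0.0422 TPM for Itgax to 2.90 ± 1.10 TPM for Csf1r.

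The lipid-associated markers were more widely shared. Trem2 was highest in Cbr (14.2 ± 0.989 TPM), then in TpB (9.31 ± 2.26 TPM) and in eWAT (3.76 ± 1.87 TPM), which overlapped with MdB (3.59 ± 0.507 TPM). Gpnmb, which osteoblasts and osteoclasts also express, was highest in TpB (40.8 ± 19.2 TPM), and eWAT (7.94 ± 2.82 TPM) overlapped with MdB. Lgals3 ran from 191.2 ± 36.9 TPM in MdB through 136.4 ± 37.2 TPM in eWAT and 107.4 ± 4.39 TPM in Spl to 70.0 ± 24.4 TPM in TpB, each overlapping with the next. Cd9 was highest in TpB (396.0 ± 77.4 TPM) and MdB (318.6 ± 27.8 TPM), and its eWAT level of 63.9 ± 14.0 TPM did not separate from Kid (65.7 ± 5.30 TPM).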

How the data were processed

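RNA of 9 tissues was isolated, and libraries were made from poly(A) RNA with a strand-specific kit, except in thymus, where RNA depleted of ribosomal RNA was used. The authors sequenced single reads, mapped them to mm10 with STAR 2.6.1 and quantified genes with RSEM 1.3.1, versions that the submitters' processing notes also name. The deposited expected counts are RSEM estimates without normalization, in which reads shared by several genes are split, and the deposited TPM values are the output of RSEM. The deposited FPKM values (192 columns) were not used. The strand setting for counting is not given in the sources used here, so overlapping genes on opposite strands can share reads. Depth was 13110740 to 16308175 expected counts in the 4 tissues tested, and low members such as Trem2 and Itgax are the least precise.

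Expected counts were rounded and fitted in each tissue alone with edgeR 4.0.16 under R 4.3.3 (filterByExpr by group, TMM factors, quasi-likelihood test, Benjamini-Hochberg over all genes tested, threshold 0.05), with all 4 groups in 1 fit and FL04 left out. The contrasts were flight in each genotype, genotype in each environment and the difference of the flight effects. Tissues were compared with limma 3.58.1 and voom, with TMM factors within tissue and the mouse as a random block. Alternatives were DESeq2 1.42.0, limma on log2(TPM + 1) of genes with at least 5 TPM in a group mean, the same with a pseudocount of 0.1 or without the filter, RLE factors, all genes without the count filter, a fit that included FL04, fits of only the groups of a contrast, the mouse number as a block, and 1 mouse left out. After the values had been seen, a fit without the iBAT libraries with over 1000 TPM of muscle genes was added. The scripts were tested on simulated data with known changes.

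A mouse number is used for a flight mouse and for a ground mouse, which are different animals. The correlation of their deviations from the group means was above 0.1 for all 5 Nrf2-KO pairs in Liv (0.22 to 0.37) and for some pairs elsewhere, and blocked values are therefore given for Liv beside the results.

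The 10 members and the marker lists were chosen with earlier results of these data known. All members were named in eWAT, called members in the other tissues, and at most 4 genes of each other list, those with the smallest adjusted p between FL_WT and GC_WT among the genes called. The 8 genes most like the members were taken by Pearson's r. Promoters came from RefSeq (GRCm38.p6, 7 of 10 members matched), and gene positions from GENCODE vM21 on GRCm38.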

Additional observations from a re-analysis of the deposited data

Results flagged for a closer look

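A mouse far from the other mice of its group was looked for in 136 groups of 5 or 6 mice, and 9 groups had one, where chance gives about 1 group in 20. In eWAT of FL_WT the mouse FL03 stood above the others for Cd68 (171.8 TPM, others 69.0 to 89.27), Adgre1 (24.94 TPM, others 13.8 to 17.15) and Trem2 (17.34 TPM, others 5.21 to 8.69). In eWAT of GC_WT, GC07 stood above the others for Clec10a (72.45 TPM, others 53.34 to 56.5). In iBAT of GC_WT, GC08 stood above the others for Gpnmb (1.35 TPM, others 0.31 to 0.70). In Liv of FL_KO, FL02 lay below the others for Itgax (0.09 TPM, others 0.21 to 0.25), which rests on a few reads. In Spl of GC_KO, GC12 stood above the others for Gpnmb (5.66 TPM, others 3.93 to 4.54), and GC04 stood above them for Cd9 (179.6 TPM, others 108.7 to 123.4) and below them for Mrc1 (60.21 TPM, others 64.34 to 66.2).

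FL04, the Nrf2-KO flight mouse with intestinal haemorrhage that entered no comparison, lay above every ground mouse of both genotypes for 8 of 10 members in eWAT, as for 20.5% of all genes tested there. Its values there were 126.9 TPM for Cd68 (highest ground mouse 75.69), 357.9 for Lgals3 (177.6), 22.12 for Adgre1 (20.73) and 14.5 for Trem2 (9.03). They were 24.09 TPM for Gpnmb (highest ground mouse 21.84), 7.62 for Itgax (6.72), 90.97 for Cd9 (83.5) and 93.1 for Clec10a (92.82). In iBAT the same held for all 8 measured members and for 34.3% of all genes tested, in a tissue whose median gene was shifted by 0.434 on the log2 TPM scale between FL_KO and GC_KO. The members lay there at 9.95 TPM for Cd68 (highest ground mouse 3.42), 8.88 for Lgals3 (3.2), 1.91 for Adgre1 (1.21) and 2.26 for Gpnmb (1.35). Cd9 was at 11.23 TPM (6.68), Mrc1 at 5.1 (2.91), Clec10a at 6.84 (3.55) and Csf1r at 8.03 (4.61).

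Flight effects that differed between tissues by limma were flagged too. In WT mice the log2 effect in eWAT minus that in Liv was 1.51 for Cd68, 1.20 for Adgre1, 1.58 for Itgax, 0.68 for Mrc1 and 1.0 for Csf1r, and eWAT minus Spl was 0.89 for Cd68, 0.61 for Adgre1 and 1.21 for Itgax. In Nrf2-KO mice eWAT minus iBAT was -1.11 for Adgre1 and -1.87 for Itgax, and eWAT minus Liv was 0.75 for Csf1r. Itgax did not pass the filter on low counts in iBAT and entered that fit through the other tissues. Of all 18462 genes tested, limma called 7.13% for eWAT minus Liv and 4.76% for eWAT minus Spl in WT mice. In Nrf2-KO mice it called 18.2% for eWAT minus iBAT and 2.85% for eWAT minus Liv.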

How the results depend on the processing

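Counts of members called stayed within 1.5 times in 158 of 187 other processings and in 99 of 114 fits with 1 mouse left out, and the cause of the changes was not tested. A count of 0 that stayed 0 was taken as unchanged, and many comparisons called 0 members in the main fit. These totals therefore say little about how steady the calls were, for which the counts per comparison follow. DESeq2 gave 1 in eWAT between FL_KO and FL_WT, 4 in Liv between FL_WT and GC_WT and 2 in Liv between FL_KO and FL_WT. limma with a pseudocount of 1 or 0.1 gave 2 in iBAT for WT flight, 3 in iBAT for KO flight (of 3 tested), 1 in Liv for WT flight and 0 in Spl between GC_KO and GC_WT, and with 0.1 also 0 in Liv for KO flight. In iBAT, Cd68 and Lgals3 passed its filter of 5 TPM only through FL_KO (means of 5.48 and 6.06 TPM). Their calls for KO flight were thus favoured by the filter. limma without the filter gave 1 and 8 in iBAT (WT and KO flight), 0 and 0 in Liv, and 0 and 0 in Spl (between ground genotypes and between flown genotypes). The share of all genes called in that fit is not given. Fits on TPM also hold the shift of iBAT with flight, by 0.309 in WT and 0.434 in Nrf2-KO mice for the median gene over the 5 TPM filter, so the 8 calls cannot be read as particular to the members. Without the filter on counts there was 1 in Liv for WT flight, 0 for KO flight and 0 in Spl between FL_KO and FL_WT. With only the groups of the contrast there were 3 in iBAT for KO flight and 0 in Liv for KO flight and in both Spl comparisons. Without the muscle-rich iBAT libraries there were 3. With FL04 there were 0 in Spl between FL_KO and FL_WT, and 2 for eWAT minus Liv in KO mice.

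With the mouse number as a replicate block, KO flight in eWAT gave 1 (Gpnmb, -0.77, adjusted p = 0.041 by edgeR), WT flight in eWAT 4 and KO flight in iBAT 6. Outside Liv of Nrf2-KO mice the numbers paired only some of the samples (2 of 6 and 2 of 5 pairs above 0.1 in eWAT, 1 of 6 and 4 of 5 in iBAT, 4 of 6 in Liv of WT mice, 1 of 6 and 2 of 5 in Spl). The r of these pairs ran from 0.071 to 0.29 in iBAT of Nrf2-KO mice and from 0.02 to 0.34 in Liv of WT mice. At most 2 flight mice in a tissue and genotype were closest to their own number. The genotype contrasts could not be fitted with the block.

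With 1 mouse left out, the count ran from 2 to 4 for WT flight in eWAT, from 3 to 5 for KO flight in iBAT, from 0 to 1 for KO flight in Liv (0 without FL01, FL02, FL11 or FL12), from 0 to 1 between FL_KO and FL_WT in Liv (1 without FL01, FL02 or FL12) and from 0 to 1 in Spl. For WT flight in eWAT, fitted changes that were not called ran from -0.0318 to 0.159 for Cd9 (-0.0318 without FL03, -0.0016 without GC08) and from -0.00653 (without FL03) to 0.133 for Csf1r. At this depth the fits per tissue could not test Trem2 in iBAT, Liv or Spl, Itgax in iBAT, or Gpnmb and Clec10a in Liv. The remaining tissues were not fitted.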

Other observations

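Thymus libraries were made from RNA depleted of ribosomal RNA, so their levels are drawn in the figure of tissue levels but not compared with the other tissues. No test was made on them. Csf1r averaged 10.3 ± 1.41 TPM in GC_WT and 16.6 ± 5.15 TPM in FL_WT (SD, n = 6 each), and 8.10 ± 0.841 TPM in GC_KO and 16.5 ± 2.05 TPM in FL_KO (n = 6 and 5). Mrc1 averaged 7.30 ± 0.724 and 12.7 ± 3.26 TPM in WT mice and 7.11 ± 1.05 and 12.0 ± 1.3 TPM in Nrf2-KO mice. Gpnmb averaged 0.783 ± 0.167 and 1.57 ± 0.402 TPM in WT mice and 0.760 ± 0.0540 and 1.92 ± 0.645 TPM in Nrf2-KO mice. Cd68 lay between 15.5 and 20.87 TPM on the ground and between 19.04 and 31.58 TPM in flight in WT mice. All flown mice lay above all ground mice for 3 of the 10 members in WT mice (Gpnmb, Mrc1 and Csf1r), against 14.1% of 18185 genes with a mean of at least 0.5 TPM in a group. In Nrf2-KO mice this held for 9 of the 10 (all but Clec10a), against 17.4% of these genes.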
